A study of Mus musculus with 9 samples.

Results

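Interferon-stimulated genes are the antiviral and antigen-presenting genes that cells switch on when an interferon binds its receptor. The 41 genes described here were taken by their symbols from the gene lists of 9 sequenced uterus libraries, out of 34619 symbols that each list holds once. All 41 passed the filter on low values, which asked for at least 1 FPKM in at least 3 libraries and which 13743 genes passed. FPKM counts sequenced fragments scaled to transcript length and library depth. Oas3 passed it through the control libraries alone, so a difference from control in that gene was built into the filter. Mx1 and Oasl1 reached 1 FPKM in fewer than 3 exposed libraries, so they needed control libraries to pass.

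The libraries came from poly(A) RNA of the uterus of female wild-type CD-1 (ICR) mice, an outbred stock, with 3 libraries in each of 3 groups. The BPAF group received bisphenol AF and the BPB group bisphenol B, each at 300 µg/kg body weight/day by gavage for 28 days, and the control group received pure corn oil by the same route for the same time. All mice were bought at 7 to 8 weeks of age, rested for 1 week, kept on corncob bedding and fed estrogen-free food. Bisphenol B and bisphenol AF are analogs of bisphenol A: in bisphenol B an ethyl group takes the place of a methyl group on the carbon between the phenol rings, and in bisphenol AF trifluoromethyl groups take the place of the methyl groups. One dose of each compound was given, and the stage of the estrous cycle is not given in the sources used here. Nothing in the labels says how many mice stand behind a library beyond its replicate number, so p-values measure the spread between these libraries.

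Type I interferons signal through the receptor chains Ifnar1 and Ifnar2 and the kinases Jak1 and Tyk2. These activate STAT proteins, and Stat2 joins Irf9 in a complex that binds the interferon-stimulated response element (ISRE) in promoters. Interferon gamma signals through Ifngr1 and Ifngr2 with Jak1 and Jak2, and drives genes that carry a gamma-activated site (GAS). The uterus is unusual in having an interferon of its own, interferon epsilon (Ifne), which the epithelium of the female reproductive tract makes without infection and under hormonal influence.

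Promoters were read for 33 of the 41 genes in a RefSeq table (GRCm38.p6, 250 bases before to 50 bases after each gene's start), which held no entry for Dhx58, Zbp1, Oas2, Mx1, Mx2, Usp18, Rtp4 or Parp14. The ISRE core was searched on both strands as GAAA, a gap of any 2 bases and again GAAA, and the GAS as TTCNNNGAA, which reads the same on both strands. At least 1 ISRE core was present in 18 of the 33 genes (54.5%), against 3.99% of all 27025 genes of the table and 3.6% of its 9959 tested genes. A GAS was present in 9 of 33 (27.3%), against 9.55% of all genes of the table and 8.35% of its tested genes. Both motifs were present in 5 genes and neither in 11, and in Bst2 and Ifitm3 the GAS overlapped an ISRE core. A match describes letters and is not a binding site. The promoters printed here are those of genes on which the results below turn, 5′ to 3′ on the gene's strand, with motif letters in capitals. Isg15 (chr4:156200769-156201068, minus strand) held 3 overlapping ISRE cores in a row, and Bst2 (chr8:71537423-71537722, minus strand) held 2 with the GAS running into the first.
Isg15: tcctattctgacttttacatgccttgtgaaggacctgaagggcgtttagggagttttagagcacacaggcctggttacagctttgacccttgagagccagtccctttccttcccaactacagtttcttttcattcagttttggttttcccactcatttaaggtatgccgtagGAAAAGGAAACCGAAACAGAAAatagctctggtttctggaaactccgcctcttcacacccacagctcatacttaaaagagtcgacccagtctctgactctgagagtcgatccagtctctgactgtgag
Bst2: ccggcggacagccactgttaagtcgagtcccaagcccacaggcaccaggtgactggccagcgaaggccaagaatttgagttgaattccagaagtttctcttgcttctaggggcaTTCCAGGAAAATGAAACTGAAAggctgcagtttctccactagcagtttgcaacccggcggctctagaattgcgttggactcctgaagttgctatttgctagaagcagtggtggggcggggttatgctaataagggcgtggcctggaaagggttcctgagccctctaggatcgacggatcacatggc
Ifit3 (chr19:34583279-34583578, plus strand) and its neighbouring copy Ifit3b (chr19:34607707-34608006, plus strand) held the same pair of ISRE cores, printed as the complement, and their promoters shared an unbroken run of 169 bases. They are shown because reads of these near-identical genes could be split between them.
Ifit3: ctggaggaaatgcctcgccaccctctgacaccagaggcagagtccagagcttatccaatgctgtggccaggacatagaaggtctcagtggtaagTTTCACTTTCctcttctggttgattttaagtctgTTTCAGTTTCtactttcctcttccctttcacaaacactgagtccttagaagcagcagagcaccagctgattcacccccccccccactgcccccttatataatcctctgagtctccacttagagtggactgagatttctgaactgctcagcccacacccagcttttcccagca
Ifit3b: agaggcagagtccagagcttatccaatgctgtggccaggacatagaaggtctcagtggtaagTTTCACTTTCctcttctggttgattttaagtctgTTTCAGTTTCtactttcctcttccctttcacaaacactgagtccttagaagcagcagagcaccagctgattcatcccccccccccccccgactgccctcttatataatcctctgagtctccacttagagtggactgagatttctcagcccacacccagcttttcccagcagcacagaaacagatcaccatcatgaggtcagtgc
Oas3 (chr5:120777610-120777909, minus strand), the gene with the highest ratio of control 1 to the median of the other libraries, held 1 ISRE core. Irf1 (chr11:53769764-53770063, plus strand, the first of 2 listed promoters) held a GAS and no ISRE core and was among the genes with the smallest ratio. This pair does not stand for the module. Ratios ran from 1.65 to 72.6 in genes with an ISRE core and from 2.07 to 23.8 in genes without, and Ifitm3, with the smallest ratio, held an ISRE core.
Oas3: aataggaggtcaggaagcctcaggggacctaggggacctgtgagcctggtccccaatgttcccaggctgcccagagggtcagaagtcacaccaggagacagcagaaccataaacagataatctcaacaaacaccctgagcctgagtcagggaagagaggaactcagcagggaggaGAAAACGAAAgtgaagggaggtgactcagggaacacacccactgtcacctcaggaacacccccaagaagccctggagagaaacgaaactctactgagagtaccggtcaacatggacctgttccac
Irf1: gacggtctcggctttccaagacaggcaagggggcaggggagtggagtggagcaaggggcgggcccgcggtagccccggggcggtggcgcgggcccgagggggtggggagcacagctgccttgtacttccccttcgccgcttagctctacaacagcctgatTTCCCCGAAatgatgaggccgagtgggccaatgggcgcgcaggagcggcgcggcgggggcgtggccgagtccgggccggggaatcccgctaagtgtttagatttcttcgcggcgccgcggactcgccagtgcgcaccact

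Each library's depth was read from the spacing of its low FPKM values and came to between 12620195 reads (control 3) and 15616779 reads (BPB 2). Of the values used for this, 84.7% to 86.5% per library were whole reads to within 0.01 reads. Over all genes control 3 stood apart: it was the lowest library in 39.6% of tested genes. It had 11614 genes at 1 FPKM or more, against 12613 to 13105 elsewhere, and an FPKM sum of 495778, against 279547 to 391700. The shares and medians over all tested genes in comparisons with control include this library. Markers of the uterine epithelium, stroma and smooth muscle were all detected in every library, but smooth muscle markers differed by group. Their 6 genes summed to 3358, 3157 and 1009 FPKM in BPAF, 7294, 8437 and 11621 FPKM in BPB, and 4485, 5547 and 3523 FPKM in control. Every BPB sum lay above every control sum and every BPAF sum below. All 6 genes were highest in BPB 3 and lowest in BPAF 3. Urothelial markers differed more widely: the summed level of 8 genes, uroplakins among them, was 1687, 6.28 and 10.6 FPKM in BPAF libraries 1 to 3, 1893, 2751 and 3175 FPKM in BPB libraries, and 3.21, 5.77 and 79.1 FPKM in controls. Upk3a, which defines that epithelium, was listed at 0 in all 3 controls and in BPAF 2 and BPAF 3. A gene changed by fewer cells of a type and a gene changed by less RNA per cell cannot be told apart in these whole-tissue libraries.

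One library stood apart across the whole module. Control 1 was the highest of the 9 libraries in 40 of the 41 genes (97.6%), against 9.82% of all tested genes, and the exception was Irf9. It was at least 2-fold above every other library in 35 genes (85.4%; all tested genes 1.72%) and at least 5-fold above every other in 24 (58.5%; all tested genes 0.451%). The mean of log2(FPKM + 1) over the 41 genes was 3.19, 2.65 and 2.86 in BPAF libraries 1 to 3, 2.69, 2.32 and 2.10 in BPB libraries, and 5.95, 3.02 and 3.29 in controls. Group means of that level were 2.90 ± 0.27 for BPAF, 2.37 ± 0.30 for BPB and 4.09 ± 1.62 for control (SD, n = 3 each). Control 2 lay above 5 of the 6 exposed libraries and control 3 above all 6, and the lowest library was BPB 3, which was the lowest of all 9 in 24 of the 41 genes. Because control 1 can carry a difference alone, each comparison between 2 groups is given with and without it.

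**Figure D1:**
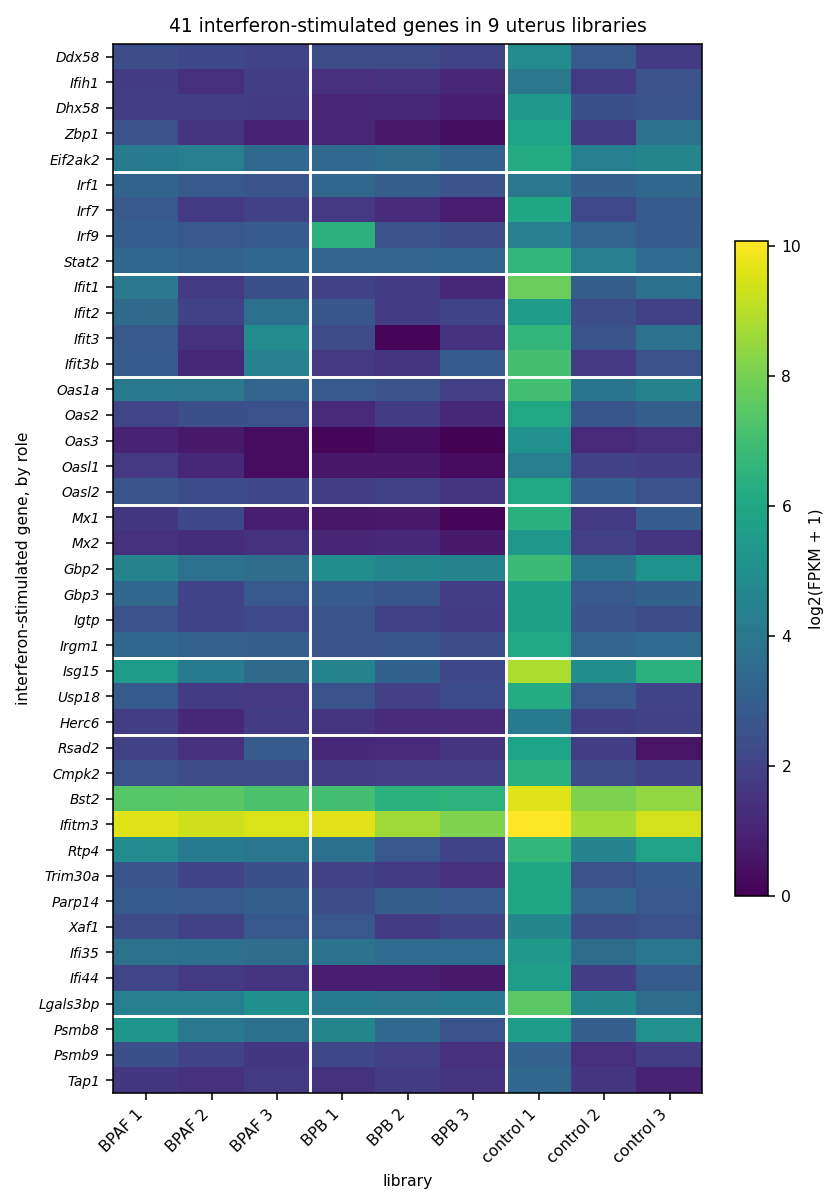
Level of each of the 41 genes (rows, grouped by role and separated by white lines) in the 9 libraries (columns, BPAF, BPB and control), as log2(FPKM + 1) by colour. The control 1 column is brighter than the others in 40 of 41 rows; the exception is Irf9, brightest in BPB 1.

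The gap between control 1 and the rest differed by role. Control 1 stood a median of 11.4-fold above the median of the other 8 libraries over the 41 genes, with a range of 1.65 (Ifitm3) to 72.6 (Oas3), whereas over all tested genes the same ratio had a median of 0.889. The median ratio was 31.3 in the IFIT family, 21.0 in the ISG15 system, 17.5 in the OAS family, 10.9 in the GTPases, 9.73 in the other effectors, 7.59 in the sensors, 6.97 in the transcription factors and 3.25 in antigen processing. Among genes with a listed promoter, the median ratio was 11.1 in the 18 with an ISRE core and 7.56 in the 15 without, and 4.95 in the 9 with a GAS and 13.4 in the 24 without. These ratios describe a single library and carry no test.

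**Figure D2:**
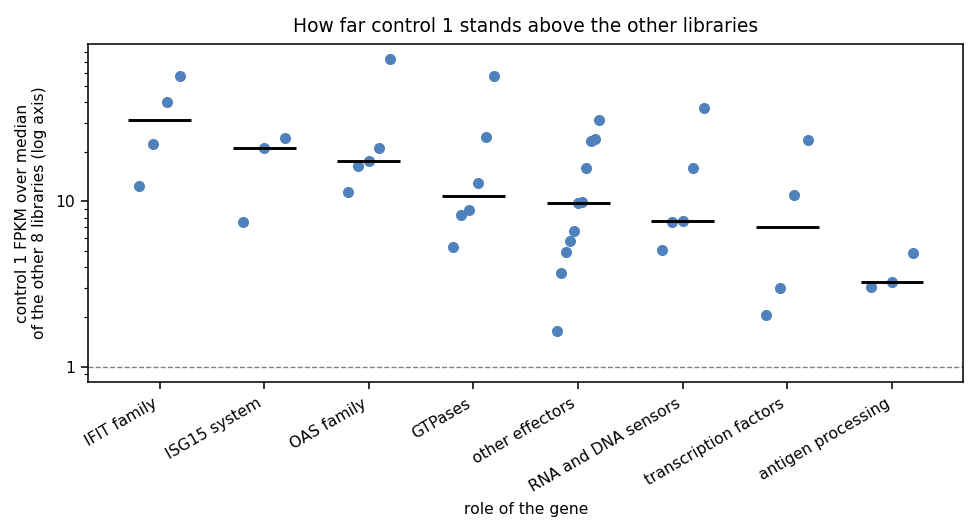
Ratio of the control 1 FPKM to the median FPKM of the other 8 libraries (log axis) for each gene, by role; a point is a gene, a bar the median of its role and the dashed line a ratio of 1. Every gene lies above the dashed line, from 1.65 to 72.6, and the IFIT family has the highest median, 31.3.

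The sensors detect viral nucleic acid in the cytoplasm. Eif2ak2, the kinase that halts translation on binding double-stranded RNA, had 17.3, 18.6 and 9.81 FPKM in BPAF libraries, 9.90, 11.3 and 8.23 FPKM in BPB libraries, and 72.5, 19.3 and 23 FPKM in controls. Every exposed library lay below every control. Zbp1, a sensor of Z-form nucleic acid, had 4.94, 1.87 and 0.975 FPKM in BPAF, 1.13, 0.676 and 0.293 FPKM in BPB, and 55.7, 2.46 and 12.9 FPKM in control. BPAF 1 lay above control 2, while all BPB libraries lay below all controls. Dhx58, a relative of RIG-I that regulates it, had 2.66, 2.65 and 2.36 FPKM in BPAF, 1.11, 1.17 and 0.801 FPKM in BPB, and 40.0, 4.43 and 5.11 FPKM in control, with no overlap between any pair of groups. Ddx58 (RIG-I) and Ifih1 (MDA5), the RNA sensors upstream of interferon production, stayed at 1.10 to 5.97 FPKM outside control 1, where they had 28.4 and 15.3 FPKM.

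Of the transcription factors, Irf7, which amplifies interferon production, had 6.12, 2.30 and 2.92 FPKM in BPAF, 2.17, 1.43 and 0.732 FPKM in BPB, and 61.9, 3.65 and 6.23 FPKM in control. Stat2 had 9.24, 8.33 and 9.28 FPKM in BPAF, 8.65, 8.72 and 9.07 FPKM in BPB, and 99.96, 18.6 and 10.5 FPKM in control. The 6 exposed libraries were close together in Stat2 and all below the lowest control. Irf9 broke the pattern: it had 7.16, 5.59 and 6.34 FPKM in BPAF, 87.1, 5.0 and 4.09 FPKM in BPB, and 19.3, 8.68 and 6.49 FPKM in control. BPB 1 held about 10915 reads of Irf9 and no other library more than 2503, and its ratio of Irf9 to Stat2 was 10.1, against 0.193 to 0.775 in the other 8 libraries. Irf9 shares 123 exon bases with Rnf31 on the same strand, so reads in those bases cannot be assigned to either. Rnf31 had 2.85 FPKM in BPB 1 and 1.54 to 8.59 FPKM in the other libraries. The source of the Irf9 reads in BPB 1 was not tested. Irf1, the factor of the interferon gamma response, had the narrowest range of the factors, 4.97 to 15.1 FPKM.

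The IFIT proteins bind foreign RNA ends. Ifit1 had 15.4, 2.24 and 4.56 FPKM in BPAF, 2.94, 2.34 and 1.26 FPKM in BPB, and 215, 6.73 and 11.7 FPKM in control. Ifit3 had 5.99, 1.77 and 28.3 FPKM in BPAF, 3.89, 0.110 and 1.79 FPKM in BPB, and 101, 5.17 and 12.4 FPKM in control. Ifit3b had 6.39, 1.16 and 21.3 FPKM in BPAF, 2.19, 1.95 and 6.41 FPKM in BPB, and 137, 2.16 and 4.63 FPKM in control. BPAF 3 was the second highest library for both copies. The ratio of Ifit3 to Ifit3b ran from 0.0564 in BPB 2 to 2.66 in control 3, so the split of reads between the copies is uncertain. Ifit2 had 45.3 FPKM in control 1 and 2.41 to 12.2 FPKM elsewhere.

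The catalytically active members of the OAS family make the second messenger that activates RNase L. Oas1a had 15.9, 15.5 and 8.65 FPKM in BPAF, 5.81, 5.03 and 2.73 FPKM in BPB, and 130.0, 14.2 and 21.9 FPKM in control. Oas2 had 3.28, 4.47 and 4.81 FPKM in BPAF, 1.34, 2.37 and 1.19 FPKM in BPB, and 64.0, 5.47 and 7.23 FPKM in control. Oasl2 had 5.19, 3.85 and 3.38 FPKM in BPAF, 2.61, 2.84 and 1.91 FPKM in BPB, and 63.1, 6.96 and 4.84 FPKM in control. In all 5 OAS genes the 3 BPB libraries lay below the 3 controls, and in 3 of the 5 (Oas2, Oas3 and Oasl1) the BPAF libraries did too, beside 6.1% and 2.5% of all tested genes; Oas3, which passed the filter through the controls alone, is among them. Oas3 had 31 to 104 reads in BPAF libraries, 5 to 37 reads in BPB libraries and 152 to 4223 reads in controls. Oas1a belongs to a cluster of near-identical copies, so its own share of their reads is uncertain.

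The GTPases assemble on viruses and on vacuoles that hold microbes. Gbp2, a guanylate-binding protein, had 22.0, 13 and 11 FPKM in BPAF, 29.5, 23.3 and 21.7 FPKM in BPB, and 116, 14.1 and 34.4 FPKM in control. It was one of 5 genes with a lower mean in BPAF than in BPB on the log2 scale, and control 2 lay below all BPB libraries. Irgm1 had 9.48, 8.09 and 7.47 FPKM in BPAF, 5.32, 5.5 and 4.20 FPKM in BPB, and 64.2, 8.66 and 10.6 FPKM in control. Gbp3 had 9.18, 3.08 and 5.91 FPKM in BPAF, 6.37, 5.49 and 2.53 FPKM in BPB, and 52.9, 6.03 and 7.77 FPKM in control, with overlapping groups. Mx1 and Mx2, the dynamin-like Mx proteins, and Igtp stayed at 0.0993 to 6.48 FPKM outside control 1, where they had 81.9, 40.2 and 51.9 FPKM. Igtp shares exon bases with Irgm2 on the same strand.

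The ISG15 system attaches the ubiquitin-like Isg15 to other proteins and removes it. Isg15 had 45.4, 16.1 and 10.3 FPKM in BPAF, 21.7, 7.71 and 3.55 FPKM in BPB, and 457, 30.9 and 86.4 FPKM in control. The 3 BPB libraries lay below the 3 controls, while BPAF 1 lay above control 2. Usp18, the protease that removes Isg15 and dampens the receptor, had 6.27, 2.46 and 2.15 FPKM in BPAF, 4.81, 2.77 and 3.85 FPKM in BPB, and 73.0, 5.71 and 3.10 FPKM in control. Outside control 1 its groups overlapped. Herc6, the mouse ligase for Isg15, had 2.52, 1.21 and 2.46 FPKM in BPAF, 1.86, 1.42 and 1.33 FPKM in BPB, and 16.3, 2.53 and 3.0 FPKM in control, where every exposed library lay below every control.

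Among the other effectors were the most abundant genes of the module and the only ones that passed the test. Bst2 (tetherin), which holds budding virus at the cell surface, had 168, 172 and 144 FPKM in BPAF, 134, 84.3 and 90.8 FPKM in BPB, and 773, 272 and 347 FPKM in control. Its 3 groups were fully separated, with BPB lowest and control highest. Rtp4, an inhibitor of viral replication first known as a receptor transporter, had 28.1, 16.2 and 14.4 FPKM in BPAF, 11.7, 5.74 and 3.03 FPKM in BPB, and 102, 21.5 and 54.5 FPKM in control. All BPB libraries lay below all BPAF libraries and all controls, and BPAF 1 lay above control 2. Ifitm3, which blocks virus entry from endosomes and which many tissues express without interferon, had 762, 644 and 728 FPKM in BPAF, 784, 398 and 275 FPKM in BPB, and 1075, 403 and 661 FPKM in control. Its groups overlapped, and it showed the smallest gap between control 1 and the rest. Lgals3bp, a secreted galectin-binding glycoprotein, had 19.6, 19.3 and 31.9 FPKM in BPAF, 16.2, 15.4 and 16.4 FPKM in BPB, and 178, 23.8 and 10.8 FPKM in control, with control 3 below all others. Rsad2 (viperin) and its genomic neighbour Cmpk2, a nucleotide kinase, had 57.1 and 84.9 FPKM in control 1 and 0.426 to 6.51 FPKM elsewhere. The remaining 5 (Trim30a, Parp14, Xaf1, Ifi35 and Ifi44) had 24.5 to 60.5 FPKM in control 1 and 0.615 to 14.4 FPKM elsewhere.

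No antigen-processing gene passed the test in either exposure. Psmb8, a subunit of the immunoproteasome, had 38.2, 15.4 and 12.1 FPKM in BPAF, 23.8, 9.90 and 4.79 FPKM in BPB, and 44.6, 7.50 and 33.2 FPKM in control. Psmb9, another such subunit, had 4.43, 3.02 and 2.09 FPKM in BPAF, 3.54, 2.71 and 1.67 FPKM in BPB, and 8.01, 1.63 and 2.55 FPKM in control. Tap1, a chain of the peptide transporter, had 2.07, 1.73 and 2.25 FPKM in BPAF, 1.74, 2.33 and 1.87 FPKM in BPB, and 9.50, 2.01 and 0.958 FPKM in control. The groups overlapped in all 3 genes, and Psmb9 and Tap1 share exon bases on opposite strands, where the strand used in counting is not given in the sources used here.

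**Figure D3:**
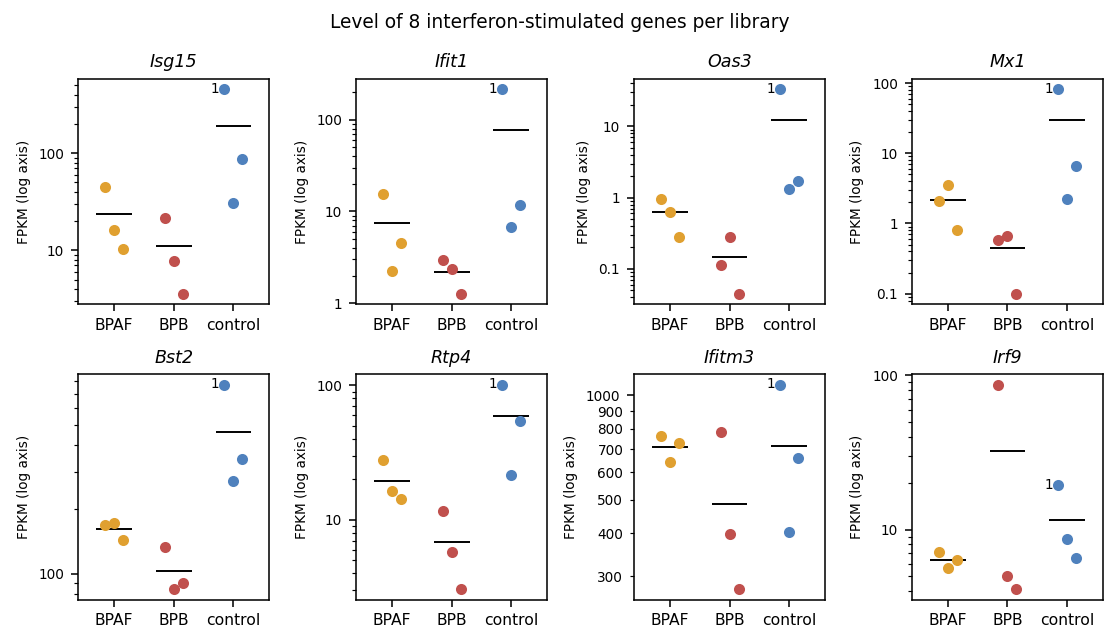
FPKM (log axis) of 8 genes in each library by group; points are libraries, bars are group means and the label 1 marks control 1. Bst2 and Rtp4 have BPB libraries below all others, in Isg15, Ifit1, Oas3 and Mx1 control 1 stands far above the rest, Ifitm3 overlaps across groups, and Irf9 is highest in BPB 1.

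The comparison of BPB with control asks what 28 days of bisphenol B did to uterine expression. Bst2 and Rtp4 fell in BPB uteri, and 38 of the other 39 genes were lower without passing the test. The mean of Bst2 was 103 ± 26.8 FPKM over the BPB libraries and 464 ± 270 FPKM over the controls (SD, n = 3 each), a difference of -2.04 (SE 0.40) on the log2(FPKM + 1) scale with limma's Benjamini-Hochberg adjusted p = 0.0381. That of Rtp4 was 6.83 ± 4.44 FPKM over the BPB libraries and 59.2 ± 40.3 FPKM over the controls, a difference of -2.85 (SE 0.58) with limma's adjusted p = 0.0418. These 2 genes are 4.88% of the 41, beside 2.55% of all tested genes called in either direction and 0.502% called lower. Over the 41 genes 40 were lower (all tested genes 36.5%) with a median difference of -1.62 (all tested genes 0.15), and Irf9, at 0.29, was the only one higher; without BPB 1 it was -1.04. In 23 of 41 (56.1%) all BPB libraries lay below all controls, against 6.1% of tested genes, and 22 had an unadjusted p under 0.05 in that direction, against 4.6% of tested genes. The next lowest adjusted p were 0.0743 for Oas1a (difference -2.74), 0.084 for Dhx58 (-2.46), 0.0954 for Isg15 (-3.49) and 0.0963 for Zbp1 (-3.07).

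By role, the median BPB difference was lowest in the OAS family at -2.39 and in the IFIT family at -2.38, followed by the sensors at -1.62, the GTPases at -1.59, the other effectors at -1.43, the ISG15 system at -1.42, the transcription factors at -1.01 and antigen processing at -0.41. Of the remaining named genes, Ifit1 differed by -3.16 and Ifit3 by -3.04, with limma's adjusted p of 0.176 and 0.193. The differences of Gbp2 (-0.63), Psmb9 (-0.30) and Tap1 (-0.41) were small, and each turned positive without control 1. The order of roles above also includes control 1. Without it, Ifit1, Ifit2, Ifit3 and Ifit3b differed by -1.68, 0.01, -1.87 and -0.04. The sensors Zbp1, Dhx58, Eif2ak2, Ifih1 and Ddx58 then differed by -2.06, -1.51, -1.04, -0.85 and -0.05. The place of the IFIT family ahead of the sensors was not kept there.

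Bst2 missed the threshold when any 1 of the 6 BPB and control libraries was left out (adjusted p up to 0.177), and Rtp4 when BPB 1, BPB 2, BPB 3, BPAF 3, control 1 or control 3 was (up to 0.187). Without control 2, Zbp1 passed it (adjusted p = 0.0398). Without control 1 no gene of the 13594 then tested was called by limma (1423 higher and 417 lower had an unadjusted p under 0.05), Bst2 differed by -1.60 with adjusted p = 0.0983 and Rtp4 by -2.33 with adjusted p = 0.135. Of the 40 module genes that could then be tested, 34 were lower in BPB (all tested genes 35.6%), 18 with an unadjusted p under 0.05 (all tested genes 3.07% lower), and their median difference was -0.59 (all tested genes 0.18). Set against controls 2 and 3 alone, all BPB libraries were below in 23 of 41 genes (56.1%), against 8.1% of tested genes. All BPAF libraries were below in 9 (22.0%), against 3.36%. Leaving out control 1 could not change these 2 counts, because it was the highest control in every gene of the module. Oas3, which passed the filter through the controls alone, is in both. In the fit without control 1, Isg15 differed by -2.45, Oas1a by -1.80 and Dhx58 by -1.51. Rsad2 (0.13), Ifit2 (0.01) and Ifit3b (-0.04) had no difference there beyond their errors of 0.50, 0.53 and 0.86.

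The comparison of BPAF with control asks the same of bisphenol AF, and the control libraries are shared between both comparisons. No gene of the module passed the test, and 9 of 41 (22.0%) had an unadjusted p under 0.05 in limma, all lower, beside 2.75% of tested genes. Over all genes 3 of 13743 (0.0218%) were called. The difference was below 0 in 40 of 41 genes (all tested genes 29.9%), with a median of -1.30 (all tested genes 0.21), and Ifitm3, at 0.11, was the only one above it. All BPAF libraries lay below all controls in 9 genes (22.0%; all tested genes 2.5%), which were Bst2, Dhx58, Eif2ak2, Herc6, Mx2, Oas2, Oas3, Oasl1 and Stat2. In these same 9 the BPB libraries also lay below all controls, so that all 6 exposed libraries were below all 3 controls (all tested genes 1.69%). Bst2 averaged 161 ± 15.4 FPKM in BPAF and 464 ± 270 FPKM in control, a difference of -1.37 (SE 0.40, limma adjusted p = 0.301), and Rtp4 differed by -1.35 (SE 0.58, adjusted p = 0.378). Without control 1 the median difference was -0.31 (all tested genes 0.23), 31 of 40 genes were lower (all tested genes 28.3%) and 2 had an unadjusted p under 0.05 in that direction (all tested genes 1.6%).

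**Figure D4:**
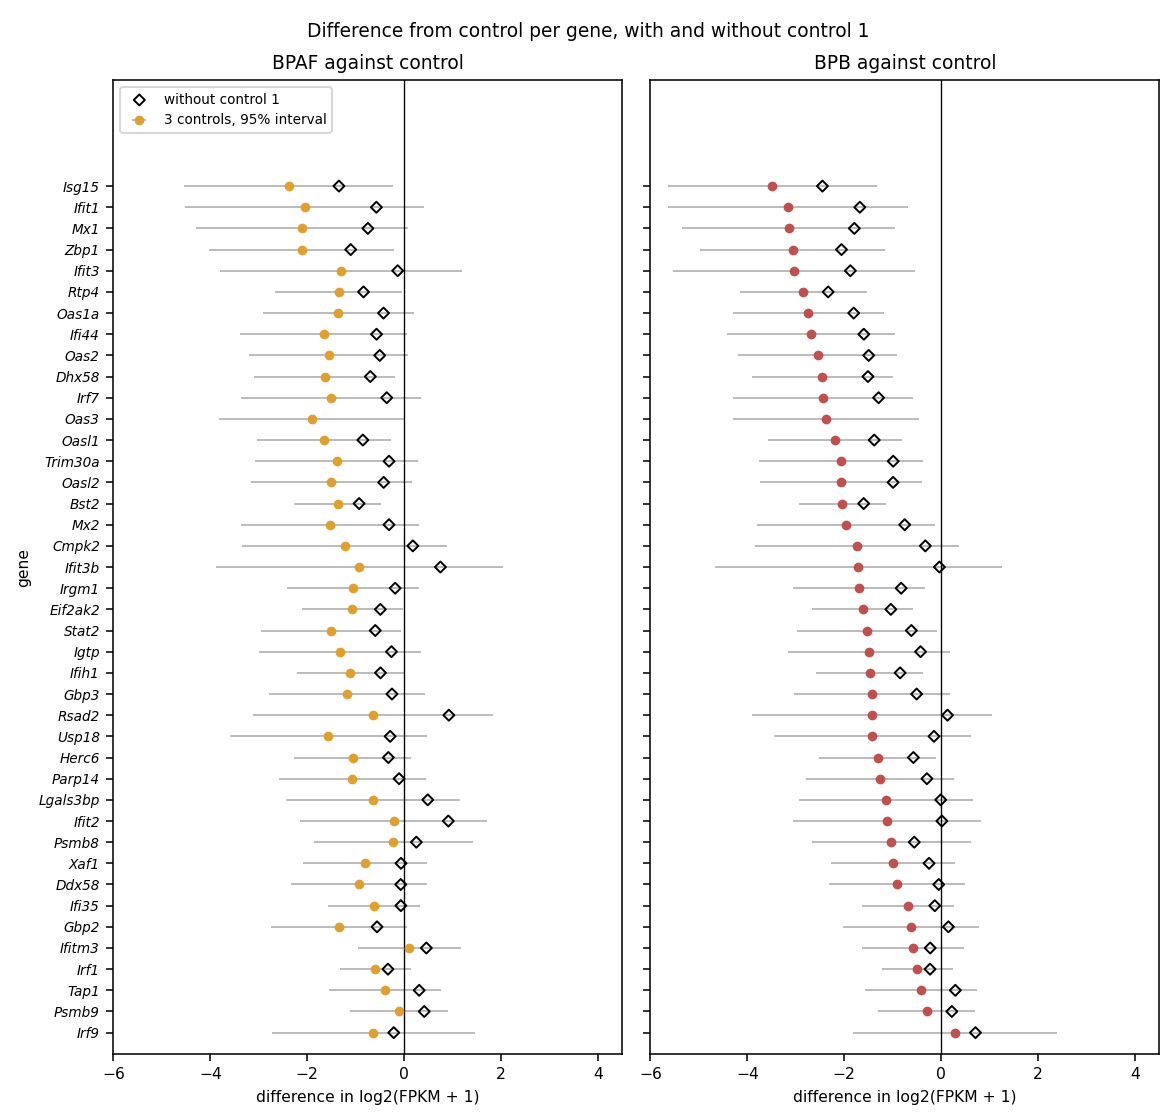
Difference from control in log2(FPKM + 1) for each gene, BPAF on the left panel and BPB on the right; filled points with grey bars are the estimates and 95% intervals with 3 controls, open diamonds the estimates without control 1, where Oas3 could not be tested. Filled points lie below 0 in 40 of 41 genes in each panel, and most diamonds lie closer to 0.

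The 2 compounds were compared at the same dose and time, as 1 pair. No gene of the module passed the test in BPAF against BPB, and 1 had an unadjusted p under 0.05 in limma (Rtp4, higher in BPAF; all tested genes 1.94% higher); over all genes 33 were called (0.24%), all lower in BPAF. This fit takes its error from all 9 libraries, control 1 included. Without control 1 no gene was called, and 10 of the 40 module genes then tested had an unadjusted p under 0.05 in limma, all higher in BPAF (all tested genes 2.01% higher), with 35 of 40 higher (all tested genes 59%) and a lowest adjusted p of 0.32. In a fit of the 6 BPAF and BPB libraries alone no gene was called either, and 11 of 38 module genes were higher and 1 lower at an unadjusted p under 0.05 in limma (all tested genes 2.74% higher and 5.46% lower). BPAF and BPB libraries of the same number deviated together from their group means. The labels give no such pairs, and the number was made a block after seeing the data. Its p-values and intervals therefore rest on pairs chosen from these same values. With the number as a block in the fit of these 6 libraries 0 genes were called, as without the block. At an unadjusted p under 0.05, limma then had 19 of the 38 higher and 1 lower (all tested genes 6.48% higher and 6.62% lower), with a lowest adjusted p of 0.23. In 24 of 41 genes (58.5%) the BPAF library lay above the BPB library of the same number in all 3 pairs, against 23% of all tested genes. Rtp4 averaged 19.6 ± 7.41 FPKM in BPAF and 6.83 ± 4.44 FPKM in BPB, a difference of 1.49 with a 95% interval of 0.19 to 2.80 and limma's adjusted p = 0.599 (0.97 to 2.02 and adjusted p = 0.23 with the block). Bst2 averaged 161 ± 15.4 FPKM in BPAF and 103 ± 26.8 FPKM in BPB, a difference of 0.67 with an interval of -0.23 to 1.57 (adjusted p = 0.912; 0.089 to 1.25 and adjusted p = 0.354 with the block). Higher values in BPAF were seen in 36 of 41 genes (all tested genes 59.1%), with a median difference of 0.55 (all tested genes 0.07), and in 14 genes (34.1%; all tested genes 6.54%) all BPAF libraries lay above all BPB libraries. The 14 were 6 of the 11 other effectors, 3 of the 5 OAS genes, 3 of the 6 GTPases, 1 sensor and 1 transcription factor. None came from the IFIT family, the ISG15 system or antigen processing. The 5 genes lower in BPAF were Irf9 (-0.92), Gbp2 (-0.71), Usp18 (-0.14), Irf1 (-0.10) and Ddx58 (-0.02). The joint test of the 3 groups called 116 genes (0.844%) and none of the 41, of which 15 had an unadjusted p under 0.05 in limma (all tested genes 15.1%).

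Of 10 interferon genes looked up, Ifne alone passed the filter. It had 4.23, 4.13 and 9.57 FPKM in BPAF, 2.37, 3.47 and 5.17 FPKM in BPB, and 14.0, 15 and 39.1 FPKM in control. Every exposed library lay below every control, and control 1 was the lowest control, unlike in the stimulated genes. Ifne fell in BPB, to 3.67 ± 1.41 FPKM against 22.7 ± 14.2 FPKM in control (SD, n = 3 each), a difference of -2.23 (SE 0.45) with limma's adjusted p = 0.0404. In BPAF it averaged 5.97 ± 3.11 FPKM, a difference from control of -1.69 (SE 0.45) with adjusted p = 0.284. Leaving out any 1 of the 6 BPB and control libraries ended the BPB call (adjusted p up to 0.157), and without control 1 the difference was -2.48 with adjusted p = 0.0967. Of the virus-induced and lymphocyte interferons, Ifnb1 was listed above 0 in control 1 alone, at 0.442 FPKM or 5 reads, and Ifng had 0.988 FPKM in control 1, or 18 reads, and at most 3 reads elsewhere. Ifna1, Ifna2, Ifna5, Ifnk and Ifnl2 were listed at 0 in all libraries.

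None of the 9 receptor and kinase genes was called in either exposure, beside 0.0218% of all tested genes called in BPAF and 2.55% in BPB. At an unadjusted p under 0.05 limma found 0, beside 2.75% of all tested genes lower in BPAF and 4.6% lower in BPB. Their median difference was 0.14 for BPAF and 0.01 for BPB (all tested genes 0.21 and 0.15). Control 1 was the highest library in 1 of the 9 (11.1%), beside 9.82% of all tested genes. Ifnar1 had 8.20, 6.45 and 9.89 FPKM in BPAF, 5.59, 7.07 and 7.64 FPKM in BPB, and 6.52, 8.11 and 4.19 FPKM in control. Ifnar2 had 3.97 to 8.99 FPKM over the 9 libraries, Ifnlr1 and Il10rb, the chains of the lambda receptor, 1.97 to 4.64 and 5.39 to 11.1 FPKM. Ifngr1 and Ifngr2 had 10.0 to 19.2 and 16.2 to 58.3 FPKM, and the kinases Jak1, Jak2 and Tyk2 14.1 to 32.6, 33.2 to 91.8 and 7.20 to 12.8 FPKM. The groups overlapped in all of these genes for BPB against control.

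Further along the pathway, 2 of 9 tested factor and feedback genes fell in BPB (22.2%), both of them inhibitors of JAK signalling, beside 2.55% of all tested genes called and 0.502% called lower. Socs1 had 4.15, 9.77 and 4.66 FPKM in BPAF, 7.24, 3.78 and 4.89 FPKM in BPB, and 18.8, 14.7 and 23.2 FPKM in control. Socs3 had 5.74, 5.73 and 7.21 FPKM in BPAF, 6.27, 4.05 and 3.31 FPKM in BPB, and 19.7, 19.8 and 8.6 FPKM in control. Every exposed library lay below every control in both, and control 1 did not stand apart from control 2 or 3. The BPB differences were -1.68 (SE 0.34, limma adjusted p = 0.0423) for Socs1 and -1.57 (SE 0.34, adjusted p = 0.0493) for Socs3, and the BPAF differences were -1.53 (adjusted p = 0.23) and -1.16 (adjusted p = 0.301). Without control 1 the BPB differences were -1.67 and -1.39, with adjusted p of 0.137 and 0.166. Leaving out any 1 of the 6 BPB and control libraries ended the call of Socs1, and leaving out any 1 library other than control 3 that of Socs3. The most abundant others, Irf2 and Pias1, had 7.27 to 19.2 and 4.63 to 11.7 FPKM with overlapping groups.

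None of 10 tested upstream sensing genes was called in either exposure, beside 0.0218% of all tested genes called in BPAF and 2.55% in BPB. At an unadjusted p under 0.05 limma found 1 in BPAF and 1 in BPB. Of all tested genes, 2.75% were lower at that p in BPAF and 4.6% in BPB. Tmem173 (STING) had 14.1, 35.7 and 13.7 FPKM in BPAF, 7.71, 16.3 and 8.68 FPKM in BPB, and 73.7, 24.8 and 28.1 FPKM in control. Tbk1 and Irf3, the kinase and the factor that turn on interferon genes, had 12.9 to 23 and 26.0 to 41.5 FPKM over all libraries.

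Among 55 further interferon-induced genes tested, 1 was called, lower in BPB (1.82%), beside 2.55% of all tested genes called in either direction and 0.502% called lower. This was Ifi205, a member of the DNA-binding p200 family, which had 0.814, 0.505 and 0.612 FPKM in BPAF, 2.66, 0.170 and 0.351 FPKM in BPB, and 7.24, 4.21 and 8.98 FPKM in control. Its exposed libraries were all below its controls, and the BPB difference was -2.07 (SE 0.43, limma adjusted p = 0.0435; -2.01 with adjusted p = 0.14 without control 1). The call was also lost without BPB 2, BPB 3, BPAF 3, control 2 or control 3. The BPAF difference was -2.20 (SE 0.43) with adjusted p = 0.19. Of its exposed libraries only BPB 1 reached 1 FPKM. Ifi205 therefore needed the controls to pass the filter, so a difference from control was in part built in. Control 1 was the highest library in 49 of the 55 genes (89.1%; all tested genes 9.82%). The BPB difference was below 0 in 51 (92.7%; all tested genes 36.5%) with a median of -1.15, and the BPAF difference in 50 (90.9%; all tested genes 29.9%) with a median of -0.83. These counts and medians include control 1, which was at least 2-fold above every other library in 39 genes. Against controls 2 and 3 alone, all BPB libraries lay below in 20 (36.4%, all tested genes 8.1%) and above in 3 (5.45%, all tested genes 22.9%). All BPAF libraries lay below in 6 (10.9%, all tested genes 3.36%) and above in 5 (9.09%, all tested genes 18.4%). Of the 3 most abundant, Ifitm2 had 305 to 534 FPKM over all libraries and was 0.945 times the median of the other 8 in control 1. B2m and H2-D1, parts of the class I antigen-presenting molecule, had 273 to 1028 and 134 to 495 FPKM, were highest in control 1 at 2.82 and 2.85 times the median of the other 8, and had overlapping groups.

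**Figure D5:**
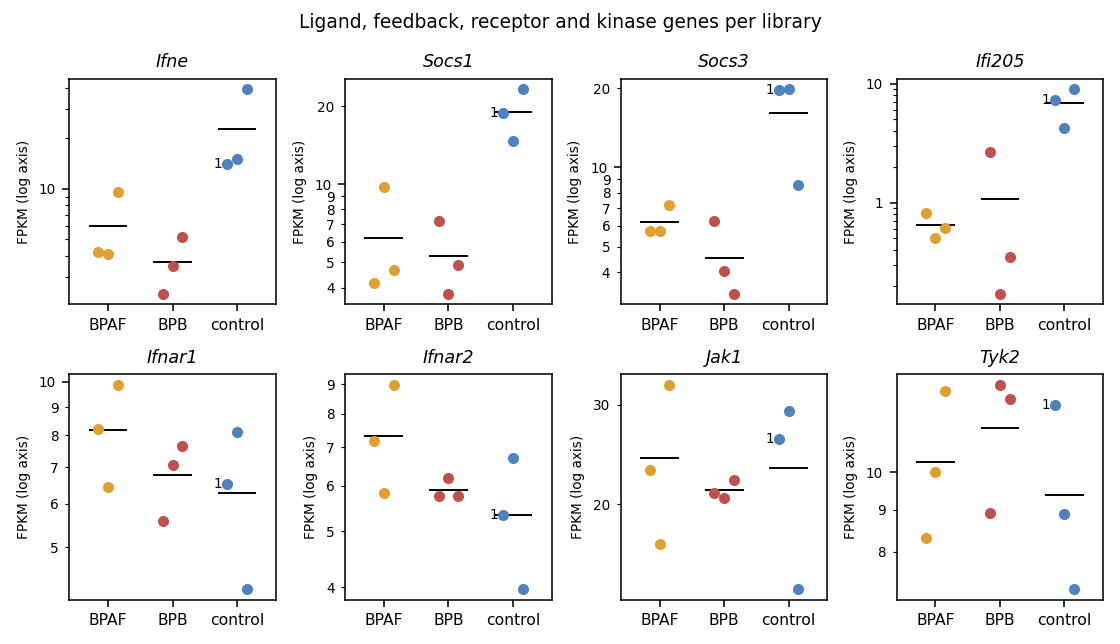
FPKM (log axis) of the ligand Ifne, the feedback inhibitors Socs1 and Socs3, the induced gene Ifi205, the receptor chains Ifnar1 and Ifnar2 and the kinases Jak1 and Tyk2 in each library; points are libraries, bars are group means and the label 1 marks control 1. In the upper row all exposed libraries lie below all controls and control 1 does not stand above the other controls; in the lower row the groups overlap.

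Markers of immune cells were set beside the module. T and NK cell markers (12 genes, 6 tested) summed to 34.5, 15.3 and 80.2 FPKM in BPAF, 14.9, 14.6 and 11.1 FPKM in BPB, and 52.4, 14.5 and 16.3 FPKM in control. BPAF 3, not control 1, had the highest sum. Macrophage markers (10 genes, 9 tested) summed to 632, 50.8 and 267 FPKM in BPAF, 342, 94.1 and 155 FPKM in BPB, and 346, 240.1 and 171 FPKM in control. Neutrophil markers (7 genes, 2 tested) summed to 3.59, 1.84 and 0.739 FPKM in BPAF, 2.65, 1.34 and 0.162 FPKM in BPB, and 22.2, 11 and 6.80 FPKM in control, highest in control 1, with Camp listed at 0 in all 9. B and plasma cell markers (6 genes, 2 tested) summed to 7.73, 31.9 and 7.93 FPKM in BPAF, 7.81, 3.43 and 6.41 FPKM in BPB, and 23.5, 3.53 and 4.15 FPKM in control, where Ms4a1 was at 0 in control 1. Plasmacytoid dendritic cell markers (6 genes, 2 tested) summed to 509.8, 1.11 and 8.53 FPKM in BPAF, 543, 457 and 572 FPKM in BPB, and 7.79, 169 and 48.9 FPKM in control. Nearly all of each high sum came from Ly6d, at 454 to 542 FPKM in BPB libraries and 509 FPKM in BPAF 1, and from Klk1, at 169 FPKM in control 2. The other 4 stayed under 1 FPKM in all libraries; of these Siglech, Ccr9 and Cox6a2 were highest in control 1, at 0.460, 0.170 and 0.390 FPKM, and Pacsin1 in BPB 3. Estrogen-responsive uterine genes (7, all tested) summed to 1233, 1446 and 175 FPKM in BPAF, 446, 650 and 346 FPKM in BPB, and 6485, 3573 and 3641 FPKM in control. The 3 control sums lay above all 6 exposed sums and that of control 1 was highest; gene by gene, all 6 exposed libraries lay below all 3 controls in 5 of the 7 (all tested genes 1.69%) and control 1 was highest in 4. The part of these marker levels, of the smooth muscle and urothelial markers and of the estrogen-responsive genes in the differences above was not tested.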

How the data were processed

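The authors deposited 1 table per library with gene symbols and a value that was read as FPKM from its behaviour: per the labels' protocols, RNA was poly(A)-selected with a stranded kit, and no aligner, counter or genome build is named in those sources. Lines of symbols that occur more than once (126 lines of 59 symbols among 34745 lines) were left out. Groups came from the sample titles. Values were tested as log2(FPKM + 1), a pseudocount of 1 that understates changes of low genes, with limma 3.58.1 (trend and robust estimation, R 4.3.3) over all 9 libraries with group as the only term, after a filter of 1 FPKM in 3 libraries. P-values were adjusted by Benjamini-Hochberg over all 13743 tested genes and called under 0.05. The fit was checked on simulated data with independent noise in each gene and no library that stands apart as control 1 does. That check does not cover this feature of the data. Promoters were searched and figures drawn with Python 3.11.15. Recovered reads rest on the spacing of low FPKM values, and intervals cover the spread between libraries only.

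The genes and lists were chosen with earlier results of these data known. Every called gene and up to 3 genes of highest mean FPKM in each role are given in full, as are ligands and receptors. Alternatives were the pseudocount, the filter, the variance options, library weights, scaling, the libraries in the fit, the replicate number as a block, leaving out each library, and the threshold. Libraries were not copies: the closest pair differed in 99.57% of tested values. Gbp6, whose symbol is repeated, was not analysed here. Deviations from the group means correlated at 0.343, 0.339 and 0.484 between BPAF and BPB libraries 1, 2 and 3, so these were treated as pairs, from the data rather than the labels; between either exposure and control all 6 such correlations were below 0. The block over the 6 BPAF and BPB libraries was added after seeing the data.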

Additional observations from a re-analysis of the deposited data

How the results depend on the processing

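With 3 libraries a group, the count of called genes in BPB against control, 351, was set by few libraries and choices. It was 152 and 66 with pseudocounts of 0.1 and 0.01, 163 without the filter, 151 with a filter of 5 FPKM, 4214 with array quality weights, 209 with equal FPKM sums, 19 with the replicate block and 774 at an adjusted p under 0.10, and between 0 and 436 with 1 library left out (0 without control 1, 1 without BPB 2 and 1 without BPB 3). The 2 called module genes became 1, 0, 0, 40, 1, 0 and 6 under a pseudocount of 0.1, one of 0.01, no filter, the weights, equal sums, the replicate block and the threshold of 0.10, 0 in a fit of the 6 libraries compared, and 0 to 2 with 1 library left out. The weights gave control 1 the highest weight, 4.75, and control 3 the lowest, 0.201, and moved the median member difference to -3.30 for BPB and -2.70 for BPAF.

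In BPAF against control, 3 called genes became 0 with a filter of 5 FPKM, 142 with weights, 1 with equal sums, 0 with the replicate block, 0 in 6 libraries and 0 to 2 with 1 library left out. In BPAF against BPB, 33 became 0 with either smaller pseudocount, 11 without the filter, 0 with 5 FPKM, 137 with weights, 8 with equal sums, 0 with the replicate block, 66 at 0.10, 0 in 6 libraries and 0 to 237 with 1 library left out. The joint count of 116 became 2, 2, 56 and 8 with pseudocounts of 0.1 and 0.01, no filter and 5 FPKM, 3431 with weights, 35 with equal sums, 0 with the block, 325 at 0.10 and 0 to 321 with 1 library left out; its members called were 39 with weights, 1 at 0.10 and 0 under the other settings. Scaling by median ratios moved the median of all genes from 0.15 to -0.04 for BPB and from 0.21 to -0.02 for BPAF, and the called BPB genes from 282 higher and 69 lower to 204 and 108, with Bst2 and Rtp4 still called. Control 1 was highest in 40 genes under both scalings, and all 6 exposed libraries were below all controls in 13 genes with median ratios and 7 with equal sums, against 9.

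Differences changed sign for Irf9 in BPB (-1.34 with weights; -1.04 to 1.01 with 1 library left out, below 0 without BPB 1 or control 3), in BPB without control 1 for Gbp2 (-1.33 to 0.15 over the libraries left out), Psmb9 (-0.67 to 0.22) and Tap1 (-0.92 to 0.29), and in BPAF against BPB for Socs1 (-0.19 to 0.36) and Ifi205 (0.074 and 0.20 with the smaller pseudocounts, 0.29 with weights, -0.44 to 0.38 with 1 library left out). That list covers the module genes given in full and the called genes in BPB, and only the called genes in the other comparisons. Outside it, Ifit2 (0.01) and Rsad2 (0.13) also turned positive in BPB without control 1. With 1 library left out, the BPB differences ranged from -2.35 to -1.60 for Bst2 (adjusted p 0.0415 to 0.177), -3.43 to -2.33 for Rtp4 (0.0393 to 0.187) and -2.48 to -1.77 for Ifne (0.0366 to 0.157). The cause of these shifts was not tested.

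Exposed and control libraries of 1 number shared only that number: the correlations of their deviations ran from -0.40 to -0.08, and over all pairs of groups a library correlated best with its own number in 6 of 18 cases. With the replicate block over 9 libraries the calls against control of Bst2 (adjusted p = 0.0574), Rtp4 (0.0562), Socs1 (0.102), Socs3 (0.0875) and Ifi205 (0.0616) were lost and that of Ifne was not (0.0452). BPAF and BPB libraries were treated as pairs by number, from the data rather than the labels. With the replicate block over only those 6, chosen after seeing the data, 0 genes were called in BPAF against BPB, as without the block. Members at an unadjusted p under 0.05 in that comparison numbered 1 with all 9 libraries, 10 without control 1, 12 in the 6 libraries and 20 with the block over them. The low read counts of Oas3 and of the interferons other than Ifne limit what can be said of them.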
